A study of Mus musculus with 43 samples.

Results

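Metallothionein genes were examined in 4 nuclei of the mouse hypothalamus. Mt1, Mt2 and Mt3 were found by their Ensembl identifiers as 3 of the 10127 genes of the table, by gene family and not by a threshold on their values. Mt4, the remaining mouse metallothionein, was not analysed here. RNA had been captured by laser from the dorsomedial and ventromedial hypothalamus (DMH and VMH) and from the arcuate (ARC) and paraventricular (PVN) nuclei. The donors were adult male mice of strain C57/BL6 with a congenital deletion of Snord116 on the paternal allele (Snord116tm1.1Uta), fed ad libitum or fasted for 24 hours. Snord116 is an imprinted cluster of small nucleolar RNA genes in the Prader-Willi region. All 12 mice carried the deletion and no wild-type library was analysed, so each comparison was made within the deletion genotype. There were 4 fasted and 5 fed libraries from ARC, 5 and 6 from DMH, 5 and 5 from PVN, and 6 and 5 from VMH.

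Metallothioneins are small, cysteine-rich proteins that bind zinc and copper and can quench reactive oxygen. Mt1 and Mt2 are inducible. Free zinc activates the transcription factor Mtf1, which binds metal response elements before these genes, and glucocorticoids and oxidative stress also raise them. In the brain Mt1 and Mt2 are known mainly from astrocytes. Mt3, also called growth inhibitory factor, is the brain form, is found largely in neurons and responds little to metals.

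The 3 genes lie on the plus strand of chromosome 8 in GRCm38, each protein coding with 3 exons in the GENCODE M21 annotation. Mt3 (ENSMUSG00000031760) spans 94152607 to 94154146, Mt2 (ENSMUSG00000031762) spans 94172664 to 94173568 and Mt1 (ENSMUSG00000031765) spans 94179082 to 94180327. Their transcripts are 536, 511 and 549 bases long. No stretch of 50 bases in any of them occurs on the same strand of another annotated transcript. Of the 50-base stretches of Mt2, 45.5% lie on the opposite strand of the antisense gene Gm45774. Strand use in counting was not stated, so reads of these overlapping genes cannot be told apart.

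The promoters of all 3 genes were found in the RefSeq set for GRCm38.p6, and the 250 bases before each start were searched on both strands. The matches are shown because metals are known to act on Mt1 and Mt2 through such elements. The metal response element core was searched as TGCACNC or TGCGCNC, and 21.4% of 32851 promoters hold at least 1 match. Mt2 holds 3 matches, as many or more being found in 1.26% of promoters, while Mt1 holds 1 and Mt3 holds 0. The antioxidant response element core TGACNNNGC occurs in 10.2% of promoters and once in that of Mt2. The palindromic glucocorticoid response element, AGAACA followed by any 3 bases and its reverse complement, occurs in 0.00913% of promoters and in none of these. In each stretch the matching letters are in capitals, and no match overlaps another.
Mt1 metal response element core, chr8:94179055-94179084, plus strand: cggtcccgctgTGCACACtggcgctccagg
Mt2 metal response element core, farthest from the start, chr8:94172384-94172413, plus strand: agcatcgcctcTGCACCCggcccctcgggc
Mt2 metal response element core, middle, chr8:94172479-94172508, plus strand: cgcagacccttTGCGCTCagctcctttgct
Mt2 antioxidant response element core, chr8:94172529-94172558, plus strand: aaagggggtgTGACTCAGCgcggggggtgg
Mt2 metal response element core, nearest the start and matching on the minus strand, chr8:94172557-94172586, printed as the plus strand: ggggggagggcGTGTGCAggctctgtccca
The first base of the Mt1 match lies 23 bases before the RefSeq start. Those of the metal response matches of Mt2 lie 223, 128 and 50 bases before its RefSeq start. The RefSeq starts differ from the GENCODE starts given above, lying upstream of it for Mt2 and downstream for Mt1. A match describes these letters alone, binding was not measured, and 0 matches in Mt3 says only that these letters are not in its window. The counts of Mt1 and Mt2 likewise hold only for the window before the RefSeq start, and another start could give other counts.

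Values are CPM, read counts scaled to a common total per library. The counted reads behind the CPM, inferred from the step between low values, ran from 1.94 to 8.23 M per library. Their median was 4.10 M, where M stands for mega, and they are not the number of reads sequenced. Capture and library preparation were done in 3 batches of 10, 15 and 16 libraries, each with fasted and fed mice. The nuclei were checked by their markers. The median of Npy in ARC was 326 CPM and at most 3.00 CPM elsewhere, and the summed Avp and Crh had a median of 711 CPM in PVN and at most 3.77 elsewhere. Npvf was at 69.7 CPM in DMH and Fezf1 at 229.9 CPM in VMH. Mice are named by state and number as in the labels, such as Fast-86. A further pair of columns, headed ARC for Fast-85 and Fed-92, matched no label and was not used. The PVN samples of both mice were not analysed, so each of them gave 1 library.

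Mt2 had the highest level of the 3 genes in most libraries, Mt1 followed, and Mt3 was low throughout. Per kilobase of transcript, Mt2 was at 176 ± 153 CPM (SD, n = 41), Mt1 at 121 ± 82.5 and Mt3 at 7.04 ± 7.22. Mt2 lay above Mt1 per kilobase in 35 of 41 libraries, and both lay above Mt3 in 41 of 41. Mt3 rested on 1 to 55 reads per library, with a median of 10, whereas Mt1 rested on 86 to 731 reads and Mt2 on 92 to 1718. Reads of amplified RNA are not independent molecules, so the precision of Mt3 was lower than even these numbers give. Since the tissue was captured in bulk, fewer cells expressing a gene and less RNA per cell cannot be told apart.

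**Figure D1:**
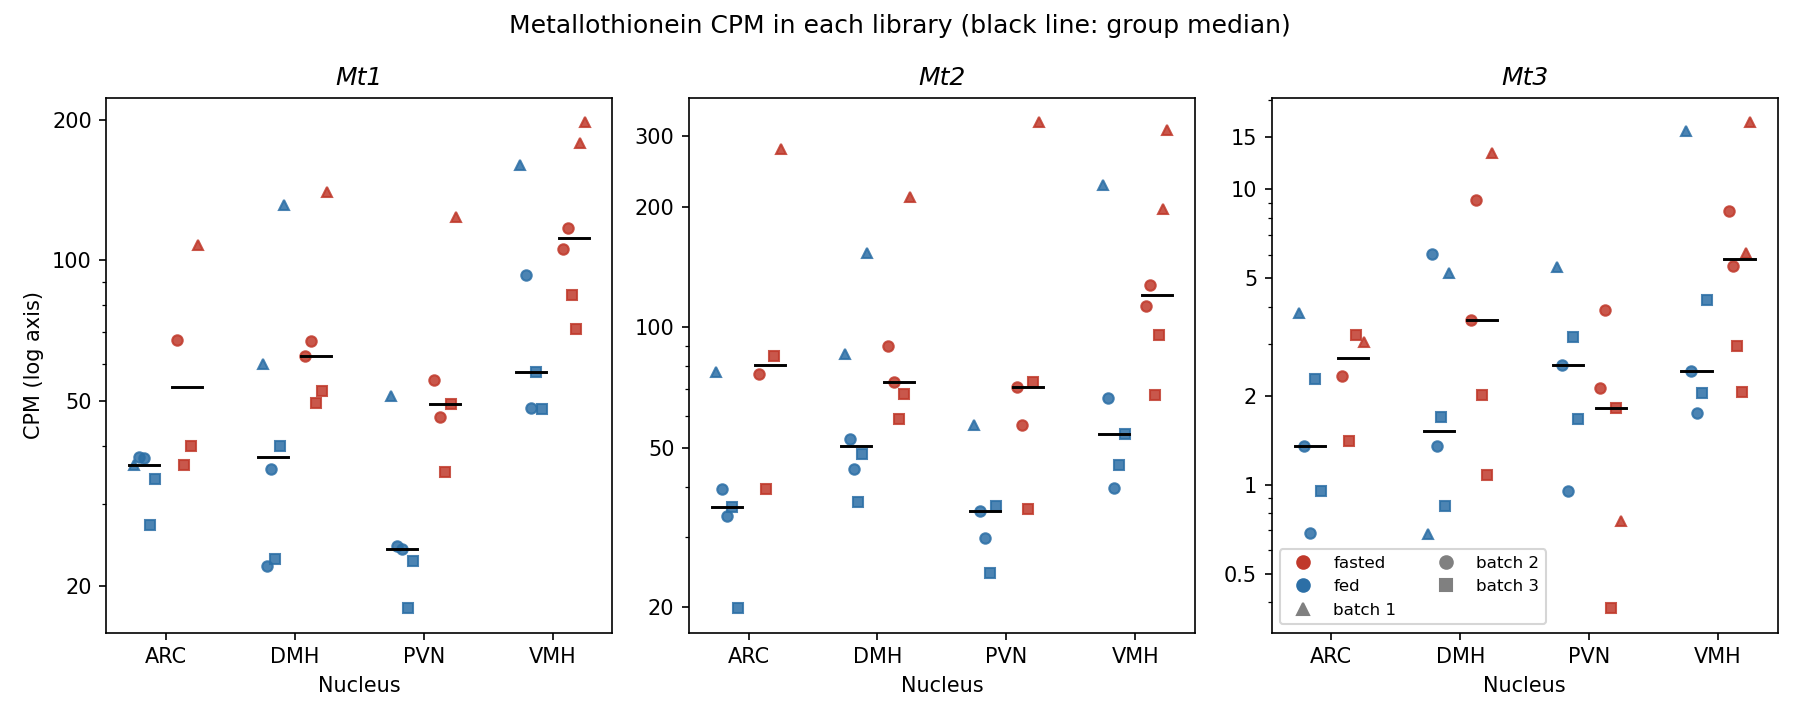
CPM of Mt1, Mt2 and Mt3 in each library (1 point each, log axis), by nucleus, with fed mice in blue and fasted mice in red, the symbol giving the batch and the black line the group median. For Mt1 and Mt2 the median of the fasted group lies above that of the fed group in each nucleus, and the libraries of batch 1 (triangles) are mostly the highest of their group.

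The effect of fasting was first examined in each nucleus, with batch as a covariate. A gene passed at a Benjamini-Hochberg adjusted p under 0.1, over all genes tested. Mt1 and Mt2 rose with fasting in PVN and Mt2 rose in ARC, whereas Mt3 passed the test in none of the 4 nuclei. In PVN the Mt1 level was 124, 55.2, 49.2, 46.1 and 35.1 CPM in fasted mice and 51.1, 24.4, 24.0, 22.6 and 17.9 CPM in fed mice. Mt2 was at 325, 73.0, 70.9, 57.0 and 35.1 CPM in fasted mice and at 57.1, 35.7, 34.8, 29.8 and 24.4 CPM in fed mice of the same nucleus. For Mt1, 4 of 5 fed libraries lay below the lowest fasted library, and that of Fed-111 in batch 1 overlapped the fasted range. The highest fasted value of both genes was that of Fast-86, also of batch 1. On the log2(CPM + 0.5) scale Mt1 differed by 1.08 ± 0.19 (SE, limma adjusted p = 0.0275) and Mt2 by 1.20 ± 0.25 (limma adjusted p = 0.0637). Of all 9529 genes tested in PVN, 0.367% passed and 0.304% rose. These were 35 genes, and 2 passed without the library of Fast-100. Without the library of Fast-86, Mt1 differed by 1.04 (limma adjusted p = 0.0656) and Mt2 by 0.87 (limma adjusted p = 0.199), so the call of Mt2 was lost. It was lost without any 1 of 7 of the 10 libraries, and the call of Mt1 without either of the libraries of Fast-100 (limma adjusted p = 0.151) and Fast-311 (limma adjusted p = 0.107).

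In ARC the level of Mt2 was 279, 84.9, 76.2 and 39.5 CPM in fasted mice and 77.2, 39.5, 35.5, 33.8 and 19.9 CPM in fed mice. Here 4 of 5 fed libraries lay below the lowest fasted library, and the exception was again Fed-111. The difference was 1.26 ± 0.24 on the log2 scale (limma adjusted p = 0.0823), where 0.176% of 9654 genes passed and 0.104% rose. These were 17 genes, and 3 to 23 passed with 1 library left out. Without the library of Fast-86 it was 1.09 (limma adjusted p = 0.348), and the call was lost without any 1 of 6 of the 9 libraries. Mt1 was at 108, 67.3, 39.8 and 36.4 CPM in fasted mice and at 37.8, 37.6, 36.3, 34.0 and 27.0 CPM in fed mice. The fed mice were close together at 34.5 ± 4.50 CPM (SD, n = 5), and the fasted mice were spread over 62.8 ± 32.9 CPM (SD, n = 4). Mt1 differed by 0.76 ± 0.23 and did not pass (limma adjusted p = 0.397, unadjusted p = 0.00338).

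In DMH and VMH none of the 3 genes passed the test, and of all genes 0.0103% passed in DMH and 0.0208% in VMH. In DMH, Mt1 was at 140.4, 67.1, 62.3, 52.5 and 49.5 CPM in fasted mice, while the 6 fed libraries had a lowest value of 22.0, a median of 37.8 and a highest value of 132 CPM. Mt2 was at 211, 89.8, 72.9, 68.2 and 59.0 CPM in fasted mice against 36.7, 50.5 and 153 CPM (lowest, median and highest) in fed mice. For both genes 4 of 6 fed libraries lay below every fasted library, and the highest fed library was that of Fed-92 in batch 1. The differences were 0.89 ± 0.23 for Mt1 and 0.72 ± 0.18 for Mt2 on the log2 scale (limma adjusted p = 0.497 for both).

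In VMH, the 6 fasted libraries had Mt1 at 71.1 CPM (lowest), 112 (median) and 198 (highest), and the fed libraries had 160.2, 92.9, 57.7, 48.2 and 47.9 CPM. Mt2 was at 67.6, 120.4 and 310.5 CPM (lowest, median and highest) in fasted mice and at 227, 66.6, 54.1, 45.2 and 39.7 CPM in fed mice. The library of Fed-111 lay within the fasted range for both genes. For Mt2 the other 4 fed libraries lay below every fasted library. Mt1 differed by 0.54 ± 0.17 (limma adjusted p = 0.509) and Mt2 by 0.75 ± 0.19 (limma adjusted p = 0.377). Unadjusted p values in DMH and VMH were between 0.000583 and 0.00350 for these genes (limma).

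Mt3 showed no common direction. In DMH it was at 13.2, 9.21, 3.62, 2.01 and 1.08 CPM in fasted mice and between 0.682 and 6.03 CPM in fed mice, with a fed median of 1.52. In PVN it was at 3.91, 2.12, 1.82, 0.756 and 0.382 CPM in fasted mice and at 5.43, 3.17, 2.54, 1.67 and 0.952 CPM in fed mice. Fasted and fed libraries thus overlapped in both nuclei, with the fasted mean higher in DMH and lower in PVN. In ARC it was at 3.22, 3.04, 2.33 and 1.41 CPM in fasted mice and at 3.80, 2.28, 1.36, 0.953 and 0.684 CPM in fed mice. In VMH it was at 2.06, 5.79 and 16.8 CPM (lowest, median and highest) in fasted mice and at 15.7, 4.23, 2.42, 2.04 and 1.75 CPM in fed mice. The groups overlapped in these nuclei too. The differences were 1.00 ± 0.60 in DMH, 0.41 ± 0.60 in ARC, 0.33 ± 0.50 in VMH and -0.56 ± 0.59 in PVN on the log2 scale (limma adjusted p from 0.811 to 0.955). With 1 library left out they ranged from 0.54 to 1.28 in DMH, 0.18 to 0.62 in ARC, 0.0838 to 0.64 in VMH and -0.92 to -0.14 in PVN. None of these differences of Mt3 passed the test.

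Batch was then held fixed. When batches were pooled, all fasted libraries lay above all fed libraries for 0 of the 3 genes in each nucleus, and for 1.12% of all genes tested in ARC. The share was 0.215% in DMH, 0.25% in VMH and 0.703% in PVN. There were 12 combinations of nucleus and batch, with 1 or 2 fasted and 1 or 2 fed libraries in each. The fasted mean was higher in 12 of 12 combinations for Mt1 and for Mt2, which held for 0.158% of 10121 genes. The differences were 0.23 to 1.56 for Mt1 and 0.12 to 2.50 for Mt2 on the log2 scale. For Mt1 each fasted library also lay above each fed library of its nucleus and batch in 12 of 12 combinations, and 1 gene of 10121 (0.00988%), Mt1 itself, did so. For Mt2 this held in 10 of 12, and 0.158% of genes had as many. The exceptions for Mt2 were PVN in batch 3 and VMH in batch 1. Mt3 was higher in 7 of 12 combinations, with differences from -2.24 to 2.40. The libraries of a mouse enter several combinations, so these counts are not independent tests.

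**Figure D2:**
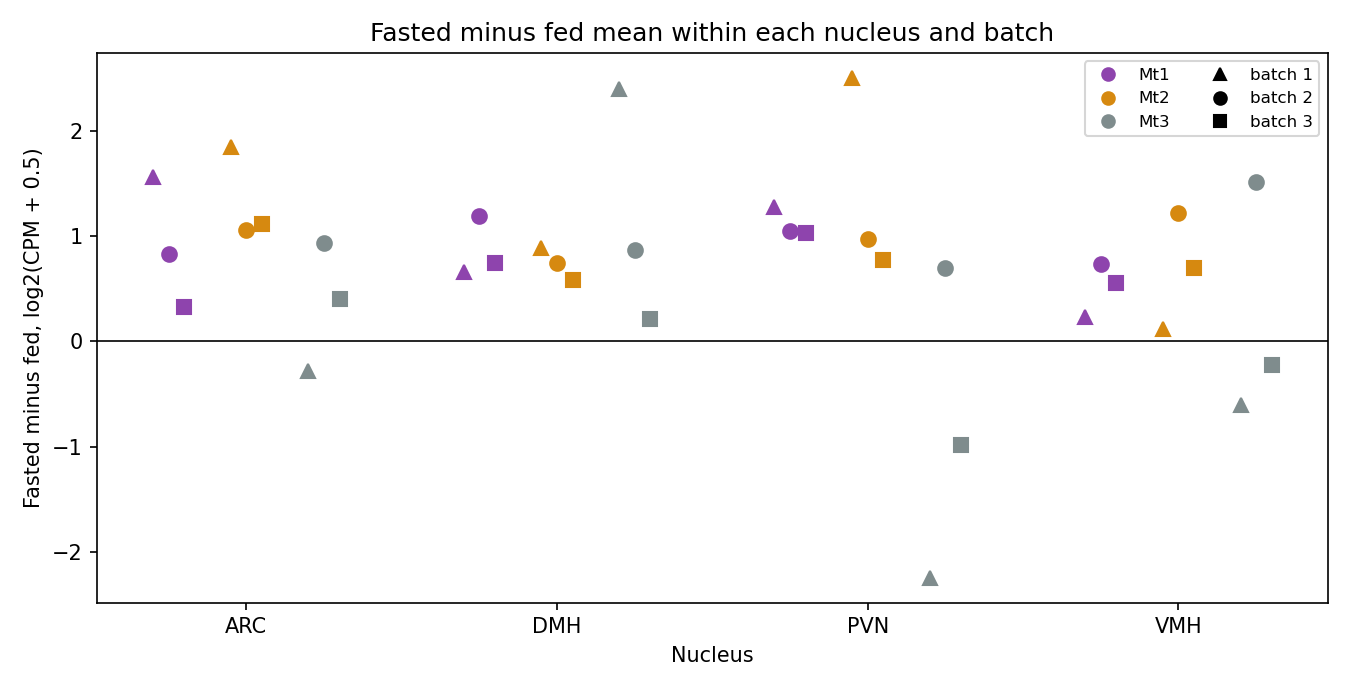
Fasted minus fed difference of mean log2(CPM + 0.5) within each nucleus and batch, with Mt1 in purple, Mt2 in orange and Mt3 in grey, the symbol giving the batch. All 12 points of Mt1 and all 12 of Mt2 lie above 0, and those of Mt3 lie on both sides.

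Averaged over the 4 nuclei, Mt1 and Mt2 rose with fasting and Mt3 did not pass the test. The mean difference was 0.80 ± 0.11 for Mt1 (SE, limma adjusted p = 2.80e-06), 0.98 ± 0.11 for Mt2 (limma adjusted p = 1.59e-07) and 0.35 ± 0.28 for Mt3 (limma adjusted p = 0.639, 0.11 without Fed-127 and 0.19 without Fast-101), and 3.18% of 10121 genes passed, 1.52% with a rise. These were 322 genes, and 155 passed without Fast-100. That fit used a single correlation between libraries of a mouse, estimated over all genes at -0.00325. The correlation of Mt2 itself was 0.355, above that of 94.3% of genes, against -0.00053 for Mt1 and 0.0703 for Mt3. With 1 value per mouse, the differences were 0.64 ± 0.17 for Mt1 (limma adjusted p = 0.211) and 0.83 ± 0.17 for Mt2 (limma adjusted p = 0.102), and 16 genes passed, neither of these among them. Without the batch covariate neither average passed (limma adjusted p = 0.113 for Mt1 and 0.106 for Mt2). In an exact permutation test that relabelled the 12 mice within batches (2-sided, 216 relabellings, smallest possible p = 0.00926), p was 0.0278 for Mt1, 0.0185 for Mt2 and 0.389 for Mt3. These 3 values are not adjusted.

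The levels per mouse showed where the groups met. After nucleus was accounted for, Mt1 was between -0.31 and 1.21 (log2, centred) in the 6 fasted mice and between -1.07 and 1.24 in the 6 fed mice. In batches 2 and 3, both fasted mice were above both fed mice for Mt1 and Mt2, and in batch 2 also for Mt3. The share of all genes with this order was not computed. In batch 1 the order did not hold for Mt1 or Mt2. There, Fed-92 was at 1.24 for Mt1 and 0.98 for Mt2, and Fast-85 at 0.80 and 0.91. Fast-85 and Fed-92 each had 1 library, of VMH and DMH, so in batch 1 their comparison rests on different nuclei. The mean difference in batch 1 was 0.33 for Mt1 and 0.72 for Mt2. It was 0.92 and 0.97 in batch 2 and 0.66 and 0.79 in batch 3. For Mt3 it was -0.0985 in batch 1, 1.10 in batch 2 and -0.15 in batch 3.

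A difference in the fasting response from nucleus to nucleus was tested within mice. The F-test of fasting by nucleus gave limma adjusted p values of 0.937 for Mt1, 0.938 for Mt2 and 0.923 for Mt3. It called 0 of 10121 genes (0.0%) by limma, with 563 at an unadjusted p under 0.05. The calls in PVN and ARC, and their absence in DMH and VMH, are thus not shown to be a difference between nuclei.

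Mt1 and Mt2 were next set against Mt3 in the same library, since a ratio of genes depends little on how the library was scaled. The difference of the log2 ratio of Mt2 to Mt3 between fasted and fed mice was 1.76 ± 0.75 in PVN (exact permutation p = 0.0556) and 0.85 ± 0.35 in ARC (exact permutation p = 0.0833). Without the library of Fast-86 or without that of Fed-111 it was 1.01 in PVN and 0.47 in ARC. It was 0.41 ± 0.33 in VMH (0.21 to 0.62 with 1 library left out, lowest without Fast-311) and -0.28 ± 0.56 in DMH. For Mt1 to Mt3 it was 1.65 ± 0.61 in PVN (exact permutation p = 0.0556) and between -0.11 and 0.35 in the other nuclei. None of 15 such tests passed, and the smallest adjusted p was 0.3125. The relabellings could give no p below 0.0278 in PVN and 0.00926 on the mean per mouse. ARC had 36 relabellings, and DMH and VMH had 108 each. There p could not fall below 1 in 36 and 1 in 108. A single ratio at its smallest possible p would thus not pass after adjustment over the 15 tests. On the mean per mouse, the ratio of Mt2 to Mt3 differed by 0.54 ± 0.25 (exact permutation p = 0.0741, 2-sided) and that of Mt1 to Mt3 by 0.35 ± 0.26 (exact permutation p = 0.204). Without Fed-111 the latter was 0.19, and without Fed-308 0.23. A stronger response of Mt1 or Mt2 than of Mt3 was therefore not shown. Mt1 to Mt2 differed by -0.19 ± 0.16 (exact permutation p = 0.269), so a difference between the inducible genes was not shown either. It was -0.27 to -0.0907 with 1 mouse left out, nearest 0 without Fast-86, Fed-92 (-0.10) or Fast-311 (-0.12), and -0.0785 in batches 2 and 3 alone.

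The nuclei differed in the level of Mt1 and Mt2, and VMH was the highest for both. An F-test over nuclei gave limma adjusted p values of 1.65e-08 for Mt1, 6.33e-05 for Mt2 and 0.108 for Mt3, and 43.3% of genes passed. The order of mean level was VMH, DMH, ARC and PVN for Mt1. In VMH it was at 105.6 ± 52.6 CPM (SD, n = 11), in DMH at 62.2 ± 39.5 (n = 11), in ARC at 47.1 ± 25.3 (n = 9) and in PVN at 45.0 ± 30.9 (n = 10). Within mice, VMH was above DMH by 0.87 ± 0.14, above ARC by 0.99 ± 0.15 and above PVN by 1.20 ± 0.14 on the log2 scale (limma adjusted p at most 8.86e-06). Each of the other neighbours, DMH and ARC or ARC and PVN, did not differ beyond the spread (limma adjusted p = 0.686 and 0.436). In all 9 mice with all 4 nuclei, VMH had the most Mt1. Between pairs of nuclei 17.3% to 32.0% of genes passed, 18.0% for ARC and DMH, 30.2% for ARC and VMH, 18.3% for DMH and PVN and 22.5% for DMH and VMH.

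For Mt2 the mean was 122 ± 87.4 CPM in VMH, 83.8 ± 53.0 in DMH, 76.1 ± 79.4 in ARC and 74.2 ± 89.7 in PVN (SD, n = 11, 11, 9 and 10). VMH was above DMH by 0.44 ± 0.14 (limma adjusted p = 0.0233), above ARC by 0.69 ± 0.15 (limma adjusted p = 0.000315) and above PVN by 0.79 ± 0.14 (limma adjusted p = 2.54e-05). DMH and PVN differed by 0.35 ± 0.14 and did not pass (limma adjusted p = 0.103), but did so without Fast-86 (limma adjusted p = 0.0245) or Fast-311 (limma adjusted p = 0.0796). VMH was the highest nucleus in 7 of 9 mice, and the difference from DMH was lost in batches 2 and 3 alone (-0.31 for DMH minus VMH, limma adjusted p = 0.125). Mt3 was also highest in VMH, at 6.18 ± 5.40 CPM, followed by DMH at 4.09 ± 4.04, PVN at 2.28 ± 1.56 and ARC at 2.12 ± 1.09. VMH was above PVN by 1.07 ± 0.40 (limma adjusted p = 0.0416) and above ARC by 0.96 ± 0.41 (limma adjusted p = 0.0863), but not beyond the spread above DMH (0.68 ± 0.40, limma adjusted p = 0.269). The call against ARC was lost without any 1 of 6 of the 12 mice, which were Fast-86, Fast-100, Fast-305, Fed-111, Fed-127 and Fed-313 (limma adjusted p up to 0.181). That against PVN was lost without Fast-86 (limma adjusted p = 0.146) or Fast-100 (limma adjusted p = 0.102). DMH minus VMH was -0.34 without Fed-111. In batches 2 and 3 alone neither call of Mt3 remained (limma adjusted p = 0.188 and 0.237).

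**Figure D3:**
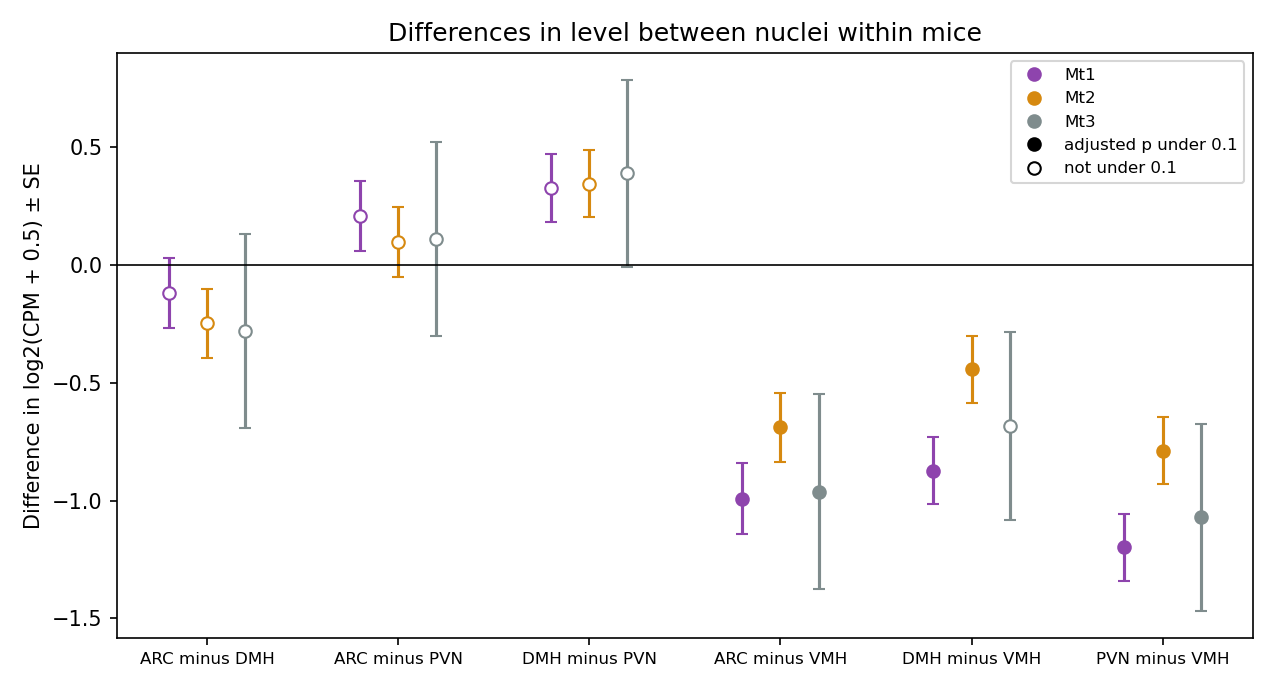
Difference in level between nuclei within mice, as log2(CPM + 0.5) with its standard error, for Mt1 (purple), Mt2 (orange) and Mt3 (grey), filled where the adjusted p is under 0.1. The differences from VMH lie below 0 for all 3 genes, and no pair of the other nuclei is filled.

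Some cell type markers also differed between nuclei. The summed level of 7 oligodendrocyte markers (of 10 listed) had a median of 1346 CPM in VMH, 787 in DMH, 492 in PVN and 336 in ARC, in which VMH is again the highest. The sum of 8 astrocyte markers (of 16 listed) was highest in DMH, with medians of 887 CPM in DMH, 769 in VMH, 752 in PVN and 560 in ARC. Neuron markers, 5 of 12, had medians of 1356 CPM in VMH, 1335 in DMH, 924 in ARC and 907 in PVN. Their part in the difference between nuclei was not tested.

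The level of each gene also differed between batches. In batch 1, Mt2 was at 264.5 ± 57.8 CPM in the 5 fasted and 119.97 ± 69.9 in the 5 fed libraries (SD), and in batches 2 and 3 at 75.4 ± 24.7 (n = 15) and 40.04 ± 11.7 (n = 16). Mt1 was at 149.7 ± 37.6 and 87.9 ± 54.7 CPM in batch 1, and at 62.6 ± 24.2 and 37.0 ± 18.7 CPM in the others. Fed mice of batch 1 thus had on average more of both genes than fasted mice of the other batches. Batch 1 was higher by 1.59 ± 0.13 for Mt2 (limma adjusted p = 2.05e-13), 1.17 ± 0.12 for Mt1 (limma adjusted p = 2.00e-10) and 0.93 ± 0.32 for Mt3 (limma adjusted p = 0.0253). Of 10121 genes, 34.3% passed in this comparison. The fit used a correlation of -0.00325 between libraries of a mouse, so these were treated as nearly independent. Its SE and p values are therefore too small if mice differ, and batch was not tested with 1 value per mouse. Summed microglia markers, 6 of 10, had a median of 137 CPM in batch 1 and 80.9 in batches 2 and 3, and tanycyte and ependymal markers, 5 of 12, had medians of 134 and 59.7 CPM. Oligodendrocyte markers had medians of 939 and 636 CPM, astrocyte markers 741 and 769, neuron markers 1093 and 1218, and vessel markers 148 and 140.2. Blood markers had medians of 16.2 and 11.6 CPM, and choroid and meninges markers 35.5 and 26.8. The CPM of the analysed genes summed to 604723 to 689010 in batch 1 and to 554896 to 611613 in the others. In batch 1 the libraries had 350 to 525 genes at 0, against 95 to 665 in the others. The nuclei are not equally represented in the batches, and the part of these markers and library properties was not tested. In batches 2 and 3 alone, the fasting difference averaged over nuclei was 0.79 for Mt1 (limma adjusted p = 1.31e-05) and 0.89 for Mt2 (limma adjusted p = 6.07e-06). Libraries of a mouse were again treated as nearly independent (correlation 0.000396).

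Mt1 and Mt2 varied together from mouse to mouse. Over 12 mice Pearson's r was 0.961 and Spearman's rho 0.958 (permutation p = 1e-05 for each, the smallest that the resamples allow, 2-sided). Without the 2 mice farthest from the median r was 0.961. Within the 6 fasted mice r was 0.959 and within the 6 fed mice 0.973 (exact permutation p = 0.00417 and 0.00278). Differences between batches remain in both values, and mice were permuted across batches. Mt3 followed less closely, with r of 0.775 to Mt1 and 0.781 to Mt2 over 12 mice (permutation p = 0.00408 and 0.00314, adjusted over 3 pairs 0.00408 for both). Spearman's rho was 0.755 and 0.699 (permutation p = 0.00639 and 0.0144), and r without the 2 farthest mice was 0.666 and 0.786. With batch means removed r was 0.885 for Mt1 and Mt2 (permutation p adjusted over 3 pairs = 0.00057). It was 0.508 for Mt1 and Mt3 and 0.554 for Mt2 and Mt3, with adjusted permutation p values of 0.0846 and 0.0836. Fasting state was kept in these batch-centred values, so no r over mice had both state and batch removed.

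**Figure D4:**
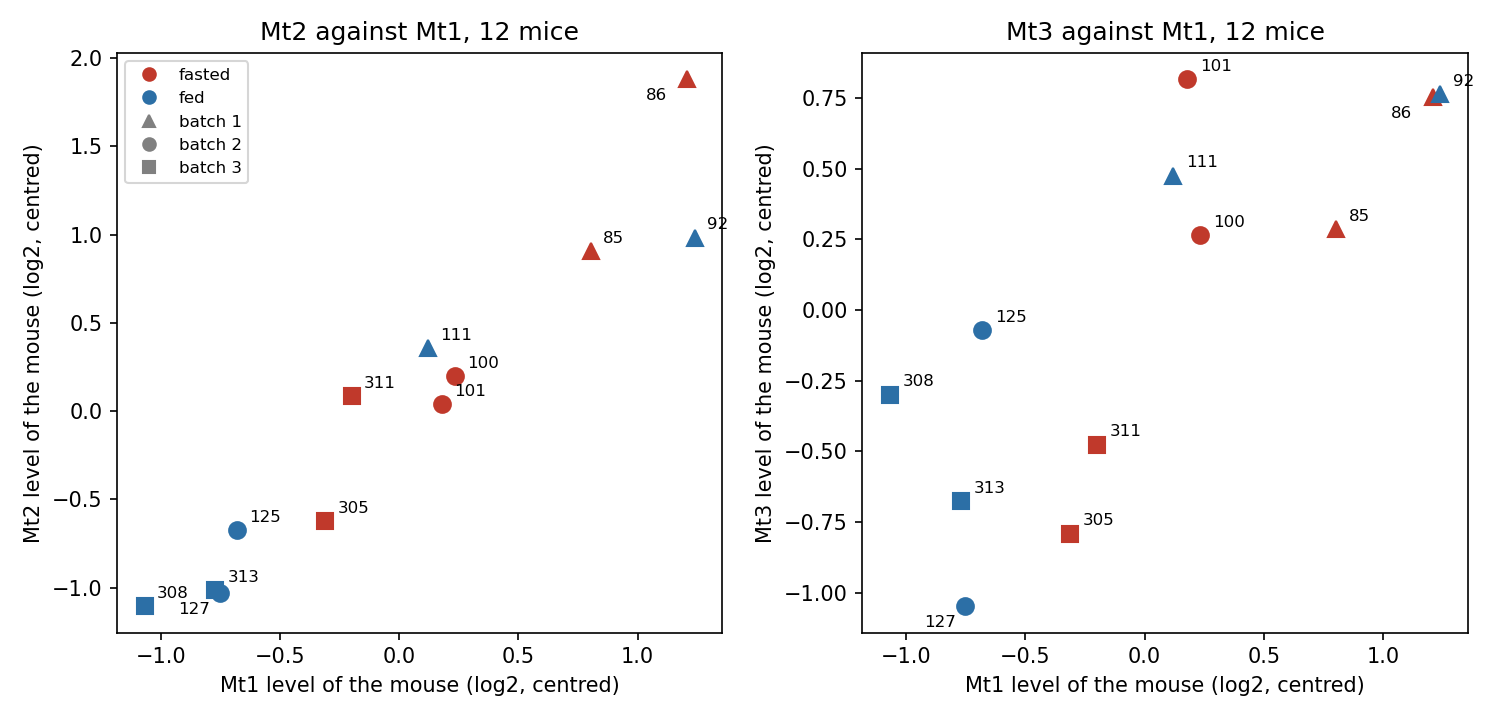
Level of each mouse after nucleus is accounted for (log2, centred), with Mt2 (left) or Mt3 (right) against Mt1, fasted mice in red and fed mice in blue, the symbol giving the batch and the number the mouse. The mice lie near a line for Mt2 and more widely for Mt3, and the 4 mice of batch 1 have the highest Mt2 levels.

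The genes most like each member were ranked by the correlation over 41 libraries after nucleus and batch means were removed, among 7639 genes with a mean of at least 5 CPM. These libraries share mice and fasting state, and r is a description only. Mt2 was the gene most like Mt1 (r = 0.78), followed by Pdk2, a kinase that inhibits pyruvate dehydrogenase (0.71), and by Spns1, a lysosomal transporter, Sult1a1, a sulfotransferase, and Arhgef10 (all 0.70). Besides Mt1, those most like Mt2 were Selenop, a carrier of selenium (0.73), Sult1a1 (0.71), Armcx5 (0.70) and Srxn1, the sulfiredoxin that restores oxidised peroxiredoxins (0.70). The genes most like Mt3 were Gm17167 (0.58), Ubald2 (0.57), Rpl28, Nup54 and Naaa (all 0.54), none of which passed the averaged test of fasting (limma adjusted p from 0.401 to 0.913). Mt3 itself had r of 0.11 to Mt1 and 0.25 to Mt2. Mt3 rested on a median of 10 reads per library, and the part of this depth in its r was not tested.

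Genes of zinc and copper handling were compared between fasted and fed libraries. Of 25 listed zinc genes, which are Mtf1 and zinc transporters, 12 were in the table, and 0 passed by limma in any nucleus or on average. Over all genes 3.18% passed on average and 0.0103% to 0.367% in single nuclei, so 0 of 12 is near the background. The list had 1 gene at an unadjusted p under 0.05 on average, the zinc transporter Slc30a2, which differed by 0.83 ± 0.38 (limma unadjusted p = 0.0323, adjusted p = 0.315) at a level of 1.42 ± 2.39 CPM (SD, n = 41). The 4 with the highest levels were the zinc transporters Slc30a9, Slc39a9, Slc30a1 and Slc30a7, which differed by -0.08 ± 0.06, 0.05 ± 0.09, -0.04 ± 0.12 and 0.01 ± 0.12. Mtf1, the zinc sensor that drives Mt1 and Mt2, was at 45.5 ± 13.2 CPM and differed by 0.01 ± 0.13 on average. The median difference of the list was 0.00446, against 0.01 for all genes. Of 12 copper genes 8 were in the table and 0 passed by limma, with 1 at an unadjusted p under 0.05 on average and a median of -0.06. The 4 with the highest levels, Cox17, Commd1, Slc31a1 and Atp7a, differed by -0.05, -0.07, -0.15 and 0.12. Sco2, a copper chaperone of cytochrome oxidase, had the largest of these, 0.56 ± 0.22 (limma adjusted p = 0.209).

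Among genes of the response to oxidative stress, 5 of 19 were in the table, and 1 of them passed in PVN and on average, where 0.367% and 3.18% of all genes passed. Srxn1 rose in PVN by 1.16 ± 0.25 (limma adjusted p = 0.0637) and on average by 0.54 ± 0.11 (limma adjusted p = 0.00442), at 178.6 ± 72.6 CPM in fasted and 78.3 ± 26.8 CPM in fed libraries of PVN (SD, n = 5 each). With 1 value per mouse it also passed, at 0.55 ± 0.11 (limma adjusted p = 0.0953). Gclc, of glutathione synthesis, differed by 0.15 ± 0.08 and Gpx1, a glutathione peroxidase, by 0.15 ± 0.08, and neither passed.

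Of 18 genes known to respond to glucocorticoids, 7 were in the table. On average 5 passed, 4 higher and 1 lower, where 3.18% of all genes passed. With 1 value per mouse none of the 5 passed (limma adjusted p from 0.217 to 0.449). By limma 0 passed in any single nucleus, where 0.0103% to 0.367% of all genes passed and 3 or 4 of them had an unadjusted p under 0.05. Zbtb16, a transcription factor, rose by 1.35 ± 0.25 (limma adjusted p = 0.000959) and Sult1a1 by 1.32 ± 0.27 (limma adjusted p = 0.00259). Klf9 and Errfi1 rose by 0.40 ± 0.12 and 0.37 ± 0.11, and Fkbp4, a cochaperone of steroid receptors, fell by 0.31 on the log2 scale. The median over the list was 0.37, against 0.01 for all genes.

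**Figure D5:**
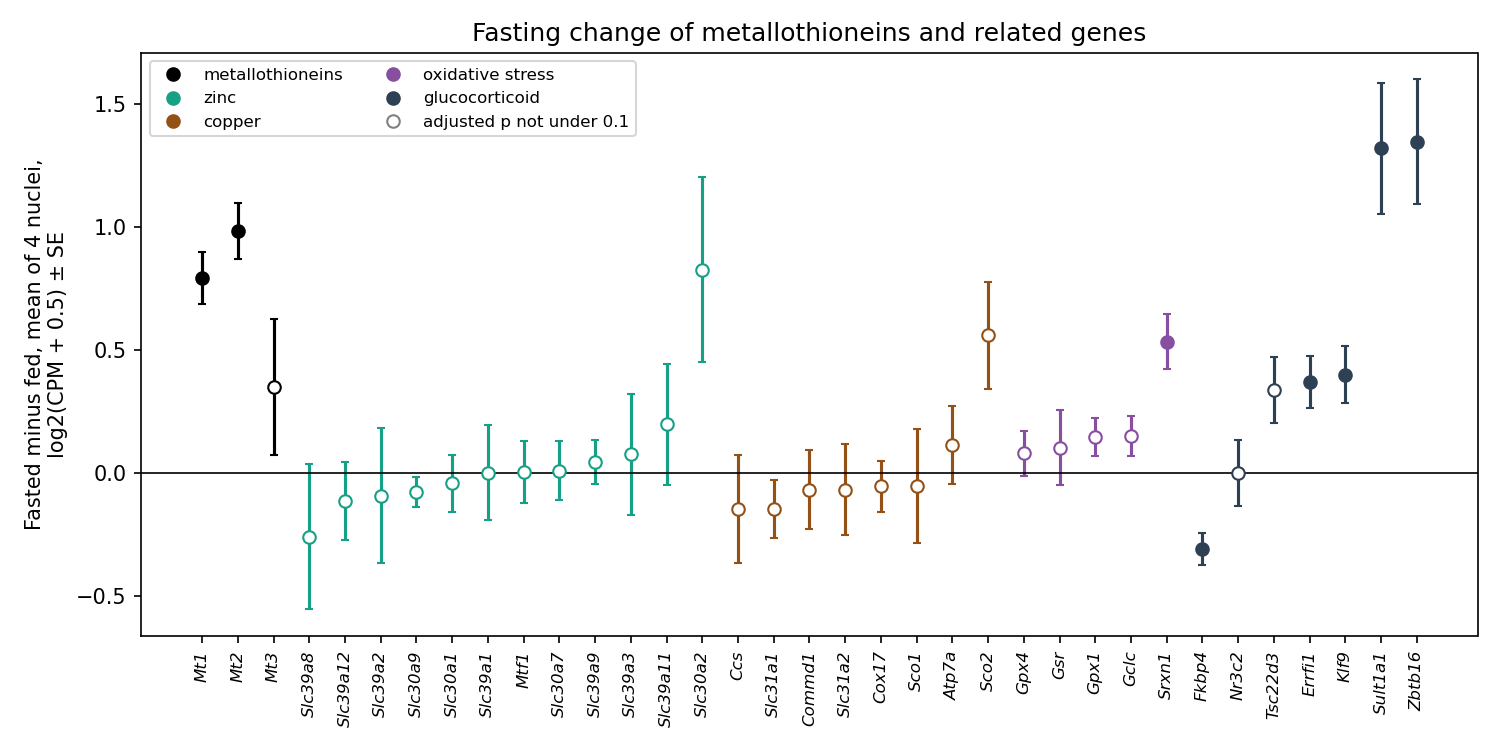
Fasted minus fed difference averaged over the nuclei, as log2(CPM + 0.5) with its standard error, for the metallothioneins (black) and the measured genes of zinc handling (green), copper handling (brown), oxidative stress (purple) and the response to glucocorticoids (dark blue), filled where the adjusted p is under 0.1. Zinc and copper genes are all open, Srxn1 is filled among the oxidative stress genes, and Zbtb16 and Sult1a1 are the highest of the glucocorticoid genes.

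Markers of other cell types were compared between fasted and fed libraries, with 3.18% of all genes passing on average and 0.0103% to 0.367% in single nuclei. The summed astrocyte markers of fasted and fed libraries overlapped in each nucleus, at 750.2 to 854 and 686 to 783 CPM in PVN and at 508 to 614 and 502 to 591 CPM in ARC. In DMH they were at 872 to 927 and 700.2 to 943 CPM, and in VMH at 749 to 864 and 629 to 798 CPM. Of the 8 astrocyte markers 2 rose on average, Agt by 0.49 ± 0.10 (limma adjusted p = 0.00452) and Gjb6 by 0.42 ± 0.12 (limma adjusted p = 0.0423), and 0 passed by limma in a single nucleus. With 1 value per mouse neither passed, Agt differing by 0.56 (limma adjusted p = 0.211) and Gjb6 by 0.28 (limma adjusted p = 0.638). None of the 8 was at 0 in any library, and other defining markers such as Gfap and Aqp4 were not analysed here. Of 7 vessel markers, Flt1 fell on average by 0.33 on the log2 scale (limma adjusted p = 0.0730). Of 4 choroid and meninges markers, Lum fell by 1.12 (limma adjusted p = 0.0537) and was at 0 in 13 of 41 libraries. With 1 value per mouse neither passed (limma adjusted p = 0.372 for both). Among oligodendrocyte, microglia, neuron, tanycyte and ependymal, and blood markers 0 passed by limma on average, with 0, 1, 2, 0 and 0 at an unadjusted p under 0.05. Whether a change in astrocytes took part in the rise of Mt1 and Mt2 was not tested.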

How the data were processed

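RNA of the captured nuclei was amplified by the Ovation V2 chemistry and sequenced as single-end reads. According to the submitters' processing notes the tools were CASAVA 1.7, TopHat2 2.0.11, Cufflinks 2.2.1, edgeR and limma, with the GRCm38 build. The program that counted reads per gene, and its use of strand, were not given in the sources used here. The authors deposited CPM per Ensembl gene. These CPM sum to 554896 to 689010 per library over the 10127 genes analysed, of which 9891 were given a symbol through GENCODE M21.

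Of the columns 41 were matched to the 43 labels, 2 matched none and were not used, and 2 samples were not analysed here. The number of counted reads was inferred from the step between low values, of which 97.8% to 98.8% were close to whole multiples of it. Other values were not, so no count test was run. CPM was transformed as log2(CPM + 0.5), which understates changes of low genes such as Mt3. A gene was kept if it reached 1 CPM in at least the number of libraries of the smaller group. Models were fitted to all kept genes with limma 3.58.1 (trend) in R 4.3.3, with Benjamini-Hochberg adjustment and a threshold of 0.1. Each nucleus was fitted with batch as a covariate. Mouse was a random block in the average over nuclei and a fixed block between nuclei, where libraries whose titles share a number were taken to be of 1 mouse, which the labels do not state. Ratios and mouse values were tested by exact permutation within batches, and correlations over 12 mice by 100000 resamples (Python 3.11.15, scipy 1.17.1). Tests were 2-sided. Nothing in the labels says that mice were housed apart, so p values of single nuclei and of mouse values measure the spread between these mice. In the average over nuclei and between batches the correlation used was -0.00325, so those p values measure mostly the spread between libraries. Between nuclei they measure the spread within mice. The fits were tested on simulated data.

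The members, gene lists and tests were chosen with earlier results of these data known. Genes named beyond the members are the 5 most correlated with each, list members past the threshold or otherwise the 4 with the highest mean level, and markers. Mtf1, Slc30a2, Sco2, Gclc, Gpx1 and the cell type markers past the threshold were named after their values were seen. Alternatives were other pseudocounts, no filter, median-ratio scaling, no batch covariate, no mouse block, fed libraries only, and leaving out each library or mouse. A single value per mouse, exact relabelling of mice, and batches 2 and 3 alone were added after seeing the data.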

Additional observations from a re-analysis of the deposited data

Results flagged for a closer look

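A library stood apart from the rest of its group of 4 to 6 libraries in 8 of 24 groups of gene, nucleus and state. Chance gives about 1 in 20 groups if groups are independent and each is of 1 population. Here the same mice recur in several groups, and batches differ within them. Each of these 8 values was of a batch 1 library and was the highest of its group. For Mt1 they were the DMH and PVN libraries of Fast-86 at 140.4 and 124 CPM, the DMH library of Fed-92 at 132 CPM and the PVN library of Fed-111 at 51.1 CPM. For Mt2 they were the DMH and PVN libraries of Fast-86 at 211 and 325 CPM and the VMH library of Fed-111 at 227 CPM. For Mt3 it was the VMH library of Fed-111 at 15.7 CPM. Batch 1 was higher than the other batches for all 3 genes, and its part in these values was not tested.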

How the results depend on the processing

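Of 642 values with 1 library or mouse left out, 599 kept their direction and side of the threshold, as did 294 of 327 under other settings. The cause of the changes below was not tested. Without the batch covariate, Mt1 in PVN (1.08, limma adjusted p = 0.663), Mt2 in ARC (1.29, 0.790) and PVN (1.20, 0.728), and the averages of Mt1 (0.78, 0.113) and Mt2 (0.98, 0.106) no longer passed. With 1 value per mouse these averages were 0.64 and 0.83. Mt2 in ARC also failed with a pseudocount of 0.1 (1.27, 0.110), with no filter (1.26, 0.117) and in batches 2 and 3 only (1.09, 0.344), as did Mt2 in PVN in those batches (0.87, 0.213). Leaving out 1 library, Mt1 in PVN ranged from 1.02 to 1.17, Mt2 in ARC from 1.09 to 1.49 and Mt2 in PVN from 0.87 to 1.42. The call of Mt2 was lost in ARC without Fast-86, Fast-100, Fast-311, Fed-111, Fed-127 or Fed-313, and in PVN without Fast-86, Fast-100, Fast-101, Fast-311, Fed-111, Fed-127 or Fed-308.

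Without the mouse as a block, DMH minus PVN passed for Mt1 (0.41), DMH minus VMH did not for Mt2 (-0.35), and the F over nuclei of Mt3 passed (2.94). The block changed no other call. Fasted and fed mice share no number, so no paired analysis of fasting was possible. In fed libraries only, DMH minus VMH of Mt2 (-0.41), ARC minus VMH of Mt3 (-1.01) and PVN minus VMH of Mt3 (-0.52) no longer passed, and the small differences ARC minus DMH of Mt1 (0.0254), ARC minus PVN of Mt3 (-0.49) and DMH minus PVN of Mt3 (-0.46) turned sign. In batches 2 and 3 only, ARC minus DMH of Mt1 turned to 0.0068, DMH minus PVN of Mt2 passed (0.44), and DMH minus VMH of Mt2 (-0.31), ARC minus VMH of Mt3 (-0.67) and PVN minus VMH of Mt3 (-0.68) did not. ARC minus VMH of Mt3 also failed with a pseudocount of 0.1 (-1.09), and its F passed with a pseudocount of 2 (3.16). Leaving out 1 mouse gave 0.27 to 0.38 for DMH minus PVN of Mt1, 0.30 to 0.45 for the same in Mt2, -0.0360 to 0.21 for ARC minus PVN of Mt3, -1.14 to -0.81 for ARC minus VMH of Mt3, -1.25 to -0.77 for PVN minus VMH of Mt3 and 1.94 to 3.33 for the F of Mt3. DMH minus PVN of Mt1 passed without Fed-125, and the F of Mt3 without Fast-311, Fed-125 or Fed-308. For DMH minus VMH of Mt3 the range was -0.89 to -0.34.

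Among ratios, none of which passed, Mt1 to Mt3 in DMH turned to 0.14 with a pseudocount of 2. In batches 2 and 3 only, Mt1 to Mt2 in PVN turned to 0.17, Mt1 to Mt3 to -0.0903 in ARC, 0.43 in DMH and -0.00083 in VMH, and Mt2 to Mt3 in DMH to 0.13. Leaving out 1 library gave, for Mt1 to Mt2, -0.0027 to 0.30 in DMH and -0.26 to 0.17 in PVN. For Mt1 to Mt3 it gave -0.0903 to 0.66 in ARC, -0.53 to 0.43 in DMH and -0.0416 to 0.45 in VMH, and for Mt2 to Mt3 in DMH -0.53 to 0.13. Over all genes, the calls with fasting in ARC (17) were 4 with a pseudocount of 0.1, 5 with no filter, 0 without the batch covariate (by limma) and 6 in batches 2 and 3. Those in PVN (35) were 3 without the covariate, and on average (322) 14 without it and 16 with 1 value per mouse. In DMH (1) they were 3 in batches 2 and 3 and 0 without the covariate, and in VMH (2) 1 without it. Fed libraries only gave 934 to 1932 calls per pair of nuclei, against 1747 to 3235. With 1 library or mouse left out, the calls were 3 to 23 in ARC, 2 to 31 in PVN (2 without Fast-100), 1 to 2 in DMH, 1 to 5 in VMH and 155 to 352 on average. They moved by over 1.5 times in ARC without any library but that of Fast-305, in PVN without any but those of Fast-305 and Fed-111, and on average without Fast-100 (155), Fast-101 (188), Fed-127 (208) or Fed-308 (187). In DMH they did so without Fast-86 or Fed-111 (2 each), and in VMH without Fast-85 (5) or without Fast-101, Fast-305, Fast-311, Fed-111 or Fed-313 (1 each). Mt3 rested on a median of 10 reads per library, which limits its precision.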
